A study of Mus musculus with 9 samples.

Results

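Of 22180 genes with a chosen probe set on the array, 95 had a lower signal after transfection of double-stranded DNA (dsDNA) in mouse embryonic fibroblasts of both genotypes that have STING. A gene was taken where log2 dsDNA minus mock was -0.5 or lower, which is at least 1.41-fold, in wild type (WT) and in MyD88-deficient (MyD88KO) cells. In addition, the brighter array of each pair had to reach 4.44, the median of all deposited log2 values, and Eph, ephrin and semaphorin genes were set aside. The 95 genes made up 0.698% of the 13605 genes that were bright enough in both genotypes. These genes were selected on their dsDNA and mock signals in WT and MyD88KO, so their lower signal there is a description and carries no test.

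The study compared fibroblasts isolated from embryos of 3 genotypes: WT (STING+/+), SKO (STING-/-) and MyD88KO (MyD88-/-). Each genotype was left untreated (mock), transfected with dsDNA (named ISD in the sample titles), or given lipopolysaccharide (LPS), the dsDNA and LPS treatments for 6 h. RNA of each genotype and treatment was hybridised to 1 Affymetrix MoGene 2.0 array, 9 arrays in all, from 300 ng of total RNA each. There was 1 array per group, so differences between 2 arrays have no replicate check, and the labels call the mock cells untreated without saying whether they received transfection reagent. The labels give neither the strain nor the embryonic stage, and do not say how many embryos each culture came from.

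STING is a membrane adaptor that is switched on when cGAS detects DNA in the cytosol, and it drives type I interferon production through TBK1 and IRF3. MyD88 is the adaptor through which Toll-like receptors, including the LPS receptor TLR4, and the interleukin-1 receptor signal to NF-kB, while TLR4 also signals through TRIF. Fibroblasts answer cytosolic DNA with a broad rise of interferon-stimulated genes, and the genes described here went the opposite way on the same arrays. In whole cultures, fewer cells that carry a transcript and less RNA per cell cannot be told apart.

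Array medians lay between 4.42 and 4.46 on the log2 scale. Sting1, the targeted gene of SKO, read 3.78 to 4.60 on the 3 SKO arrays and 8.54 to 9.32 on the other 6. Myd88 read 6.99 to 8.21 on the MyD88KO arrays and 7.52 to 8.95 in WT, and its probe set did not check the MyD88KO label. Of 17 fibroblast markers, 16 were at or above 4.44 on every array, with array medians of 9.12 to 10.5, while the medians of 16 endothelial markers were 4.37 to 4.58. Epithelial markers had array medians of 4.84 to 5.08, neural and glial markers 4.83 to 5.16, and leukocyte and macrophage markers 5.44 to 6.03. Also at or above 4.44 on every array were 7 of 16 endothelial, 6 of 11 epithelial, 7 of 10 neural and glial, and 10 of 13 leukocyte and macrophage markers. Some were bright, such as the endothelial marker Flt1 (7.91 to 8.82), so the medians do not show that other cells were absent.

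Across the 95 genes the median log2 dsDNA minus mock was -0.62 in WT (a 1.53-fold lower signal) and -0.81 in MyD88KO (1.75-fold). Over all genes bright enough, the median was 0.00 in WT and -0.03 in MyD88KO. A difference of -0.5 or lower was held by 2.03% of 13924 genes in WT and by 4.8% of 14027 in MyD88KO, and a difference of 0.5 or higher by 5.13% and 7.59%. Most differences were small: 65 of the 95 genes were under 2-fold lower in both genotypes, 7 were 2-fold lower in WT, 27 in MyD88KO, and 4 in both. The difference was larger in MyD88KO for 71 genes and larger in WT for 24. The mean signal of the members over 9 arrays had a median of 7.40 on the log2 scale, against 6.71 for all genes in the selection pool, and 17 members had a mean under 6.

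The limit of -0.5 cut through a continuous range of values. Just inside it lay Rap1gap, with -0.50 in WT and -0.68 in MyD88KO, and Afap1, with -0.51 and -0.89. Fgf5 (-0.50 and -0.53), Cavin2 (-0.50 and -0.70) and Tlr5 (-0.75 and -0.50) were also barely inside. Just outside were Pgf, a VEGF family growth factor, with -0.50 in WT and -1.39 in MyD88KO, Sh3pxd2b with -0.50 and -0.62, and Gm6139 with -0.60 and -0.50. Gm13777 (-0.50 and -0.55) and Zfp862-ps (-0.55 and -0.50) were outside as well. Epha2, an Eph receptor, with -0.77 and -1.10, and Efna4, an ephrin, with -0.72 and -0.82, met the limits and were set aside by family.

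The 4 genes that were 2-fold lower with dsDNA in both WT and MyD88KO were Trib2, Jag1, Edn1 and Adm, and their promoter windows are printed here because no other member differed as much in both. Each window runs from 250 bases before to 50 bases after the annotated start, in the direction of transcription, from RefSeq on GRCm38.p6. Capitals mark matches, on either strand, to the GC box GGGCGG in Trib2 and Adm, to the RBPJ motif TGGGAA in Adm, and to the TEAD motif GGAATG and an interferon response element-like motif (GAAA, any 2 bases, GAAA) in Edn1.
Trib2 promoter, chr12:15816736-15817035, minus strand: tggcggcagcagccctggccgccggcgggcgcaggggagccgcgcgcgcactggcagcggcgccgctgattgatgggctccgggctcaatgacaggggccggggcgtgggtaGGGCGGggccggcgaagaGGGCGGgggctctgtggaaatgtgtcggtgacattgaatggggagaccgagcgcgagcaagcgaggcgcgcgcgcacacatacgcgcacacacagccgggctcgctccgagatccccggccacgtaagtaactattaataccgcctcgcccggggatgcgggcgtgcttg
Jag1 promoter, chr2:137116471-137116770, minus strand: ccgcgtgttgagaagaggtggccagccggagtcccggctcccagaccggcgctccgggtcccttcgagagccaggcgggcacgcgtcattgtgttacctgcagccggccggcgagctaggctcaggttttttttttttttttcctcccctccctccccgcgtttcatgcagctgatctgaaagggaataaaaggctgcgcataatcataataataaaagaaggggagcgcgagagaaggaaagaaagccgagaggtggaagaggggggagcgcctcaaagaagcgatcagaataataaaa
Edn1 promoter, chr13:42301226-42301525, plus strand: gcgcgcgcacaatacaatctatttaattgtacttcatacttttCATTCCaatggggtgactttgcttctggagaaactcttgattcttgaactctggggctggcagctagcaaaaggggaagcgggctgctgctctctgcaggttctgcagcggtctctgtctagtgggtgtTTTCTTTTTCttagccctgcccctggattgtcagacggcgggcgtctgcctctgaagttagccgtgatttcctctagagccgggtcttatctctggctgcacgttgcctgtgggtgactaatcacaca
Adm promoter, chr7:110627407-110627706, plus strand: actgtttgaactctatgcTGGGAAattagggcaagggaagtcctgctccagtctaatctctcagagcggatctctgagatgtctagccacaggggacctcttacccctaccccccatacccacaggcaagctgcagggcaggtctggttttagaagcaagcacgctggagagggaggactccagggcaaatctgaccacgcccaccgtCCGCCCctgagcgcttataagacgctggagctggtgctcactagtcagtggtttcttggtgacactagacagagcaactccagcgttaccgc
Edn1 read CATTCC at bases 44 to 49 and TTTCTTTTTC at bases 173 to 182, both the reverse complements of the motifs. Trib2 had its GC boxes at bases 113 to 118 and 131 to 136, and Adm read TGGGAA at bases 19 to 24 and CCGCCC at bases 209 to 214. None of the motifs searched was in the Jag1 window. No motif was shared by all 4 windows.

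A window was at hand for 69 of the 95 members, and 26 members had none in the table used. The GC box, bound by Sp family factors, was in 73.9% of the members' windows and 35.9% of all 27025 windows. The proportion was 60.9% in the 11442 windows of genes bright enough to be tested, whose median GC content was 60.3% against 64% in the members. For the other motifs, the share of the members' windows is followed by that of all windows and that of the tested genes' windows. The RBPJ motif of the Notch pathway was in 21.7%, 25.5% and 23.5%, and the TEAD motif in 17.4%, 14.6% and 12.2%. The AP-1 motif TGANTCA was in 5.8%, 7.93% and 5.55%, and the TATA box TATAAA in 10.1%, 14.2% and 8.15%, so for both the members lay below all windows and above those of tested genes. The cAMP response element TGACGTCA was in 1.45%, 1.88% and 3.03%, and the E-box CACGTG in 7.25%, 7.24% and 9.75%. The CArG box of serum response factor was in 1.45%, 1.57% and 1.43% (Ston1 only), and the interferon response element-like motif in 1.45%, 3.49% and 2.89% (Edn1 only). All motifs were read on both strands, matches of different motifs could overlap, and a match is a description of letters in this window.

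Trib2, a tribbles pseudokinase that acts as a scaffold for ubiquitin ligases and AKT signalling, had the lowest mean dsDNA difference over WT and MyD88KO, although Edn1 was lower in WT alone. Its log2 signal in WT was 7.23 with mock, 5.78 with dsDNA and 7.12 with LPS, and in MyD88KO it was 7.48, 4.80 and 7.35. In SKO the 3 arrays read 7.27, 7.36 and 7.18. Only the dsDNA arrays of the genotypes with STING were low, and the other 7 arrays lay between 7.12 and 7.48. The difference of dsDNA from mock was -1.45 in WT, -2.68 in MyD88KO and 0.09 in SKO. The relatives Trib1 (0.58 in WT and 0.20 in MyD88KO) and Trib3 (0.12 and -0.53) did not share the low signal in both genotypes.

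**Figure D1:**
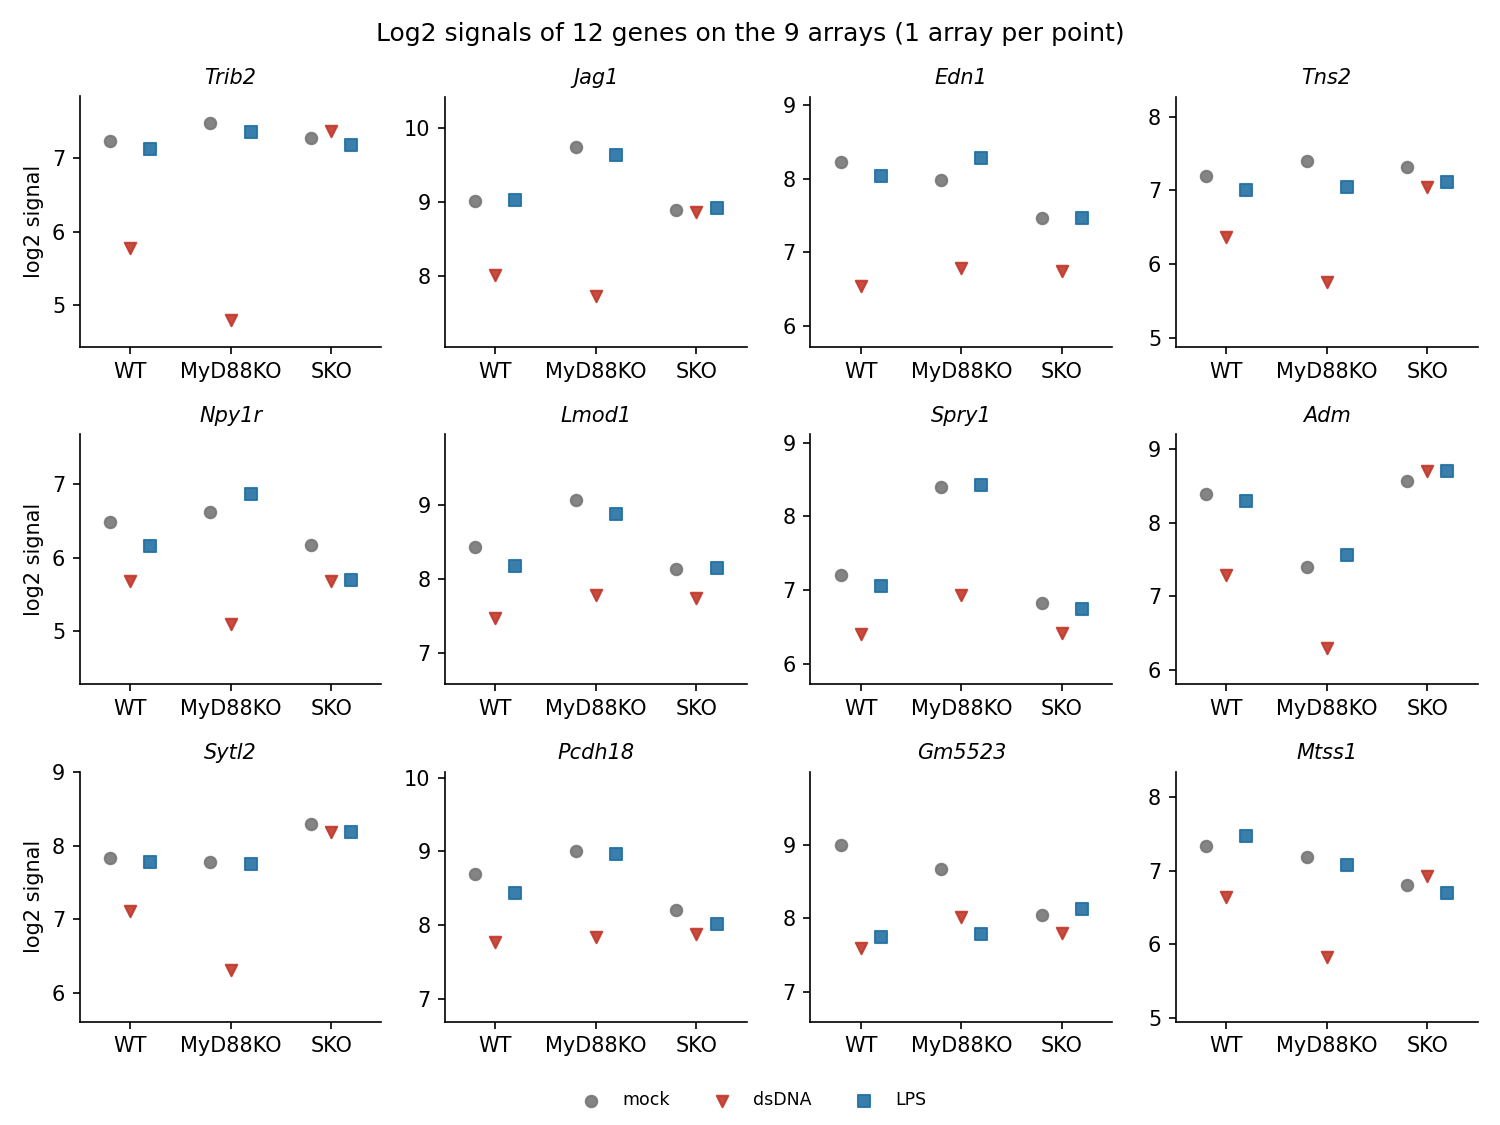
Log2 signal (vertical axis, each panel spanning the same number of log2 units) of the 12 members with the lowest mean dsDNA minus mock in WT and MyD88KO, by genotype, with 1 point per array for mock, dsDNA and LPS. The dsDNA points of WT and MyD88KO lie below mock by selection, and for Trib2, Jag1, Adm and Sytl2 the 3 SKO points lie together.

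Jag1, a ligand that activates Notch receptors on neighbouring cells, read 9.02, 8.0 and 9.02 with mock, dsDNA and LPS in WT and 9.74, 7.72 and 9.64 in MyD88KO. The SKO arrays read 8.89, 8.86 and 8.91. The 2 low dsDNA arrays did not overlap with any other array. Lfng, the glycosyltransferase that modifies Notch receptors and changes their response to ligands, read 7.26, 6.40 and 6.95 in WT, 7.34, 6.29 and 7.38 in MyD88KO and 6.87, 6.46 and 6.85 in SKO. For Lfng the SKO dsDNA array was also the lowest of its genotype, with a difference of -0.41 from mock.

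Among 29 measured genes of a Notch pathway list, dsDNA gave a difference of -0.5 or lower for 2 in WT and 5 in MyD88KO, and of 0.5 or higher for 3 and 5. None of the 29 passed 0.5 in either direction in SKO. Single genes of the list lay on both sides of mock: the receptor Notch1 was 0.77 higher in WT and 0.96 in MyD88KO, and the ligand Dll1 was 0.39 and 2.10 higher. Of the target genes, Heyl had -0.49 and -0.58, and Hey2 had 0.89 and -0.05. The coactivator Maml2 was 0.91 and 0.64 higher, and Nrarp, a feedback inhibitor induced by Notch, had -0.28 and -0.81.

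Edn1 encodes the precursor of endothelin-1, a vasoconstrictor peptide, and Adm that of adrenomedullin, a vasodilator peptide. Edn1 read 8.24, 6.55 and 8.04 in WT, 7.99, 6.78 and 8.29 in MyD88KO, and 7.47, 6.75 and 7.47 in SKO. Its dsDNA array was the lowest in all 3 genotypes, with differences from mock of -1.69, -1.21 and -0.71 in that order. The SKO mock array was itself below the WT and MyD88KO mock arrays. Adm read 8.39, 7.29 and 8.30 in WT, 7.39, 6.30 and 7.56 in MyD88KO and 8.56, 8.70 and 8.71 in SKO. The 3 SKO arrays of Adm were higher than all others, and the dsDNA array among them was 0.13 above mock.

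Receptors for peptides and lipids were the other members of this group. Npy1r, a neuropeptide Y receptor, read 6.48, 5.68 and 6.16 in WT, 6.62, 5.10 and 6.86 in MyD88KO and 6.18, 5.69 and 5.70 in SKO. In SKO both treated arrays of Npy1r were lower than mock, by 0.49 with dsDNA and 0.48 with LPS on the log2 scale. Npr3, the receptor that clears natriuretic peptides, had a dsDNA difference of -0.54 in WT, -0.93 in MyD88KO and 0.08 in SKO. S1pr3 and S1pr2 are receptors of sphingosine 1-phosphate that couple to several G proteins. S1pr3 read 7.30, 6.59 and 7.08 in WT, 9.90, 8.83 and 9.85 in MyD88KO and 7.15, 7.34 and 6.97 in SKO, so all MyD88KO arrays were above all others. S1pr2 had differences of -0.61, -0.55 and -0.07 in WT, MyD88KO and SKO, and Gprc5a, an orphan receptor, had -0.67, -0.81 and 0.01.

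Among the relatives, S1pr1 was higher with dsDNA, by 0.41 in WT and 0.57 in MyD88KO, and the lysophosphatidic acid receptor Lpar4 by 0.34 and 1.03. Of 11 measured lysophospholipid receptors in WT, 2 were at -0.5 or lower and 0 at 0.5 or higher; of 12 in MyD88KO, 2 and 2. A list of vasoactive peptides and receptors gave 5 of 23 lower and 1 higher in WT, 3 of 24 lower and 2 higher in MyD88KO, and 2 of 23 lower in SKO, which were Edn1 and Adm2. Nppb, the B-type natriuretic peptide, had -0.58 and -0.49 in WT and MyD88KO, and Vipr2, a receptor of vasoactive intestinal peptide, was 1.12 and 0.98 higher.

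Secreted factors and matrix proteases gave 4 members. Grem1, an antagonist of bone morphogenetic proteins, had dsDNA differences of -0.75 in WT, -0.88 in MyD88KO and -0.18 in SKO. Adamts5 and Adamts1 are metalloproteases that cleave proteoglycans such as aggrecan and versican. Adamts1 had -0.55, -0.96 and -0.33 in the same order. Fgf5, a fibroblast growth factor, was dim, at 5.55, 5.04 and 4.87 in WT, 5.07, 4.54 and 4.80 in MyD88KO and 4.68, 4.74 and 4.79 in SKO. In a list of 47 genes of the TGF-beta and BMP pathway, Grem1 was the only 1 at -0.5 or lower in WT, against 5 at 0.5 or higher, and in MyD88KO 10 were lower and 5 higher. Fgf5 was the only 1 of 46 growth factors and receptor tyrosine kinases at -0.5 or lower in WT, against 4 at 0.5 or higher.

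The kinase group held Trib2 and 6 other genes. Spry1, a feedback inhibitor of receptor tyrosine kinase signalling to ERK, read 7.20, 6.41 and 7.05 in WT, 8.40, 6.94 and 8.43 in MyD88KO and 6.82, 6.42 and 6.74 in SKO. The dsDNA array was the lowest of each genotype, by -0.79, -1.46 and -0.41 from mock. The remaining members were the AMPK-related kinases Nuak1 and Hunk, the calcium-dependent kinase Camk2g, the tyrosine kinase Abl1 and Stk10, which phosphorylates ezrin-family proteins. The SKO dsDNA differences of the 7 genes lay between -0.41 and 0.09. Of 21 feedback inhibitors of MAP kinases, 1 was at -0.5 or lower in WT and 3 in MyD88KO: Spry1 was in both, with Spred3 (-0.31 and -0.88) and Dusp14 (-0.35 and -0.59) in MyD88KO.

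Actin regulators, focal adhesion proteins and related GTPase regulators formed the largest group of named proteins, with 15 members. For 14 of them the dsDNA difference was larger in MyD88KO than in WT, as it was for 71 of all 95 members. Both differences served the selection, and a trait of this group was not tested. Tns2, a tensin that links integrins to actin, read 7.20, 6.36 and 7.0 in WT, 7.40, 5.75 and 7.05 in MyD88KO and 7.31, 7.05 and 7.12 in SKO. Mtss1, a membrane-bending protein that binds actin, read 7.33, 6.65 and 7.47 in WT, 7.19, 5.82 and 7.07 in MyD88KO and 6.80, 6.93 and 6.69 in SKO. For both genes the 2 dsDNA arrays of WT and MyD88KO were below the other 7 arrays. Lmod1, a leiomodin that nucleates actin filaments in smooth muscle, read 8.44, 7.46 and 8.18 in WT, 9.07, 7.78 and 8.88 in MyD88KO and 8.14, 7.74 and 8.15 in SKO. The SKO dsDNA array of Lmod1 was within the range of the dsDNA arrays of the other genotypes, 0.39 below its own mock.

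Lmod1 is also a transcript of smooth muscle, and markers of smooth and skeletal muscle were read on the same arrays. The median log2 signal of 15 smooth and skeletal muscle markers was 7.11, 6.65 and 7.38 with mock, dsDNA and LPS in WT, 5.85, 5.46 and 5.64 in MyD88KO, and 6.09, 6.03 and 5.98 in SKO. In WT each of these medians was the reading of a single gene, Actc1, so they do not show a shift of the whole list. The median of the markers' own dsDNA differences was -0.15 in WT, -0.21 in MyD88KO and -0.04 in SKO. With dsDNA, 2 of 15 markers were at -0.5 or lower in WT, 1 of 13 in MyD88KO and 0 of 15 in SKO. Those in WT were Myh3 and Mylpf of skeletal muscle, and the 1 in MyD88KO was Smtn of smooth muscle. Their part in the result for Lmod1 was not tested. Of the 15 markers, 12 were at or above 4.44 on all 9 arrays.

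The other members of the actin group were the scaffold Bcar1 (p130Cas), Afap1, Ajuba, Cobl and Kank1, the GTPase-activating proteins Arhgap42, Arhgap23, Dlc1, Srgap3 and Syde1, the exchange factor Plekhg3, and Mrtfa, the actin-sensing coactivator of serum response factor. Arhgap42 had dsDNA differences of -0.59 in WT, -1.02 in MyD88KO and 0.04 in SKO, and Dlc1, a GTPase-activating protein and tumour suppressor, had -0.53, -0.66 and -0.18. Ajuba, a LIM protein of adherens junctions that restrains Hippo signalling, had -0.57, -0.78 and -0.11. Over the 15 genes, SKO dsDNA differences ran from -0.39 to 0.13, and LPS differences in any genotype from -0.35 to 0.26.

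Few genes of the lists around these members passed 0.5. Of 21 measured targets of serum response factor and MRTF, Lmod1 was the only 1 at -0.5 or lower in WT, and Lmod1 and Srf (-0.33 in WT, -0.78 in MyD88KO) were the 2 in MyD88KO. The median over that list was -0.15 in WT, -0.20 in MyD88KO and -0.08 in SKO. Of 22 YAP and TEAD targets measured in WT, 1 was lower and 1 higher, and of 23 in MyD88KO, 2 and 3. No gene of either list passed 0.5 in SKO with dsDNA.

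Small GTPases, their regulators and membrane traffic proteins gave 10 members. Sytl2, a synaptotagmin-like effector of Rab27 in secretion, read 7.83, 7.11 and 7.79 in WT, 7.78, 6.32 and 7.76 in MyD88KO and 8.30, 8.18 and 8.18 in SKO. Rin1, an effector of Ras and exchange factor of Rab5, read 8.65, 7.86 and 8.51 in WT, 9.09, 7.91 and 8.94 in MyD88KO and 8.51, 8.51 and 8.45 in SKO. In both genes the dsDNA arrays of WT and MyD88KO were the 2 lowest of 9, and the 3 SKO arrays were within 0.12 (log2) of each other. The group also held Rin3, the Rap GTPase-activating proteins Rap1gap and Sipa1, Rab30, Rab3a, Rassf6, the endocytic adaptor Ston1 and the sorting nexin Snx24. Sipa1 and Rassf6 were 0.15 and 0.20 above mock with dsDNA in SKO.

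Of 8 proteins of the cell surface, junctions and planar polarity, Pcdh18 and Prickle1 had the largest differences. Pcdh18, a protocadherin, read 8.70, 7.76 and 8.43 in WT, 9.01, 7.84 and 8.97 in MyD88KO and 8.20, 7.87 and 8.01 in SKO. Prickle1, a core protein of planar cell polarity, read 7.39, 6.43 and 6.73 in WT, 6.43, 5.41 and 6.52 in MyD88KO and 7.02, 6.85 and 6.92 in SKO. Both Prickle1 and its relative Prickle2 were lower with LPS in WT, by 0.66 and 0.56 on the log2 scale, while the differences in MyD88KO were 0.10 and 0.04 and those in SKO -0.10 and 0.31. The difference between genotypes was not tested. The WT and MyD88KO LPS differences share their mock arrays with the selection. The other members were the neuropilin Nrp1, a co-receptor of VEGF and semaphorins, the caveolar coat protein Cavin2, the connexin Gjb2, the adhesion protein Flrt3 and Cacng1, a calcium channel subunit of skeletal muscle.

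Transcription factors and chromatin proteins gave 13 members. Jade1, a subunit of HBO1 histone acetyltransferase complexes, read 8.37, 7.74 and 8.30 in WT, 8.58, 7.27 and 8.49 in MyD88KO and 8.53, 8.31 and 8.22 in SKO. Its 2 dsDNA arrays of WT and MyD88KO were below the other 7. Osr1, a mesenchymal transcription factor of limb and kidney, had dsDNA differences of -0.59 in WT, -1.11 in MyD88KO and -0.34 in SKO. Klf13, a Kruppel-like factor, had -0.70, -0.98 and -0.16, and the homeobox factor Dlx2 had -0.59, -0.56 and -0.25. The other members were the cofactor Lbh, the repressor E2f6, the helix-loop-helix factor Atoh8, the homeobox factor Six5, the zinc finger proteins Zfp503, Zfp618, Zfp760 and Zik1, and Prr12.

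In a list of developmental transcription factors, 3 of 63 measured genes were at -0.5 or lower with dsDNA in WT and 5 at 0.5 or higher. In MyD88KO 10 of 64 were lower and 7 higher, and in SKO 0 of 61 passed 0.5 in either direction. Of 16 Kruppel-like factors, 1 was lower and 3 higher in WT, and 2 and 2 in MyD88KO. Lists of immediate early genes, cell cycle genes, cholesterol biosynthesis, glycolysis and hypoxia, p53 targets, integrins and extracellular matrix, Wnt pathway genes and regulators of G protein signalling held 0 of the 95 genes.

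Only 3 members were immune proteins. H2-Q10 is a secreted class I major histocompatibility protein, Il1r1 is the interleukin-1 receptor that signals through MyD88, and Tlr5 is the receptor of bacterial flagellin. H2-Q10 read 7.86, 6.53 and 7.44 in WT, 6.43, 5.79 and 6.69 in MyD88KO and 7.90, 7.89 and 8.23 in SKO, so the dsDNA array was the lowest in WT and in MyD88KO. A second H2-Q10 probe set with a mean of 3.52 did not share this: its differences were 0.25 in WT and 0.20 in MyD88KO. Class I genes are near-identical, and the value of H2-Q10 is uncertain for that reason. Il1r1 read 7.07, 6.55 and 7.53 in WT, 7.88, 7.03 and 8.14 in MyD88KO and 7.36, 7.38 and 7.38 in SKO. Il1r1 was higher than mock with LPS by 0.46 in WT and 0.26 in MyD88KO, so dsDNA and LPS lay on opposite sides of mock.

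Enzymes of lipids, glycans and peptides gave 5 members: Ugcg, which makes glucosylceramide, Dagla, which makes the endocannabinoid 2-AG, the glycosyltransferases St6gal1 and Gcnt4, and the peptidase Pgpep1. Their SKO dsDNA differences lay between -0.13 and -0.05. The other named proteins were the kinesin Kif21b, the ubiquitin ligase Trim16, Rusc2, Pxdc1, Ccdc9b, Lcn8 and Fthl17f. Fthl17f, a ferritin heavy chain-like gene, read 5.30, 4.48 and 4.96 in WT, 5.61, 4.89 and 4.76 in MyD88KO and 5.46, 4.60 and 5.09 in SKO. Its dsDNA difference was as large in SKO (-0.86) as in WT (-0.82) and MyD88KO (-0.71), at signals close to 4.44. Lcn8, an epididymal lipocalin, was as dim, at 4.04 to 5.08 over the 9 arrays.

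Among RNA genes, Carmn, a long non-coding RNA of smooth muscle and the host of the miR-143 and miR-145 cluster, read 7.93, 6.82 and 7.69 in WT, 8.13, 7.30 and 8.30 in MyD88KO and 7.77, 7.28 and 7.36 in SKO. Mir145a, the probe set of the miR-145 gene, read 6.48, 5.95 and 6.67 in WT, 6.65, 5.59 and 7.22 in MyD88KO and 6.60, 6.11 and 6.04 in SKO. Both dsDNA differences in SKO were -0.49, among the 4 lowest of the members. The 15 muscle markers given above had a median dsDNA difference of -0.15 in WT, -0.21 in MyD88KO and -0.04 in SKO. Their part in these values was not tested. Mir382 had -0.52 in WT, -0.89 in MyD88KO and 0.00 in SKO. Such probe sets read the gene's transcript and do not tell the mature miRNA from its precursor.

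The remaining RNA genes were Rny1, a Y RNA bound by the Ro60 protein, and the long non-coding RNA Gm16548. Grouped with them were 4 pseudogenes and Gm11983, which had no entry in the RefSeq table. The gene models 2900026A02Rik, 2610008E11Rik, 5730507C01Rik and 9930012K11Rik were placed here for want of a protein name, although RefSeq lists them as protein-coding. Of these, Gm11983 was lower in more than 1 LPS comparison. Gm11983 read 6.49, 5.59 and 5.81 in WT, 5.91, 4.95 and 5.78 in MyD88KO and 6.26, 5.89 and 5.73 in SKO. It was the only member at -0.5 or lower with LPS in both WT (-0.69) and SKO (-0.53). The gene model 2900026A02Rik had dsDNA differences of -0.54, -1.40 and -0.38 in WT, MyD88KO and SKO. The gene model 2610008E11Rik had -0.87, -0.97 and 0.04, and was higher with LPS by 0.13, 0.33 and 0.34 in the same order.

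Without STING, 92 of the 95 genes lay within 0.5 (log2) of mock after dsDNA, as did nearly all genes measured. The median difference of the members in SKO was -0.10, against 0.00 over all 13965 genes measured, and 73 of the 95 were below 0, against 45.9% of all genes. A difference of -0.5 or lower was held by 2 members, Fthl17f and Edn1, where 0.659% of all genes reached it, and 1 member, 5730507C01Rik, was at 0.5 or higher, against 1.05%. At -0.25 or lower there were 20 members, against 5.31% of all genes. The SKO arrays were not used to choose the genes, while the smaller size of the SKO difference than both others, found in 94 of the 95, is partly set by choosing genes with large differences in WT and MyD88KO.

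**Figure D2:**
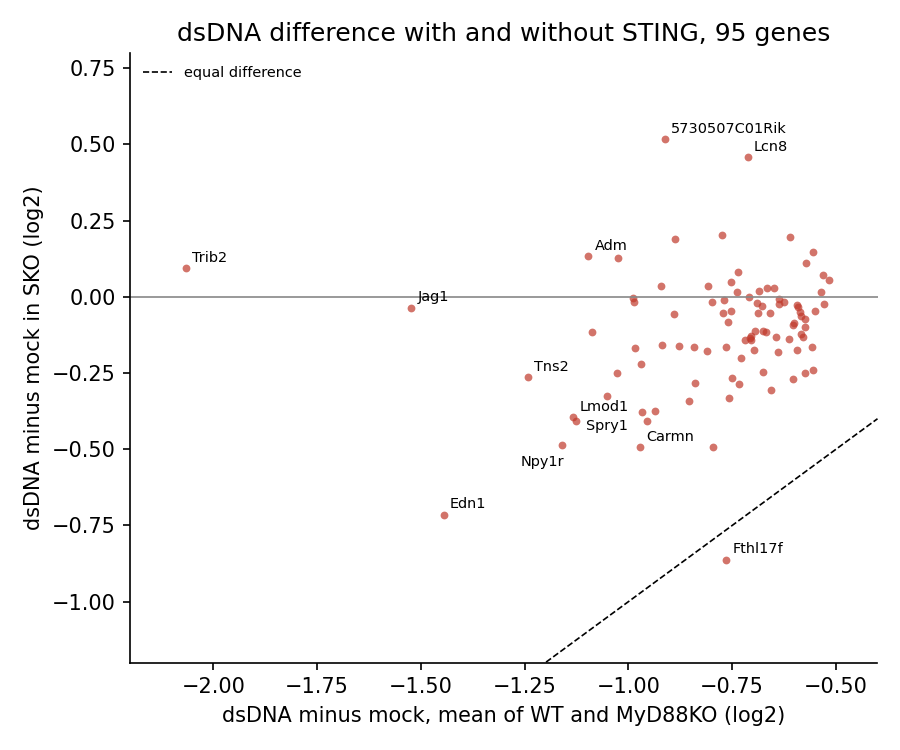
Each point is 1 of the 95 genes, with the mean of the WT and MyD88KO dsDNA minus mock differences (log2) on the horizontal axis and the SKO difference (log2) on the vertical axis. Points above the dashed line differed less in SKO, and Fthl17f is the only point below it.

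The members with the lowest SKO differences, after Fthl17f and Edn1, were Carmn and Mir145a at -0.49, Npy1r at -0.49, Spry1 and Lfng at -0.41 and Lmod1 at -0.39. The highest were 5730507C01Rik at 0.52, Lcn8 at 0.46, 3000002C10Rik and Rassf6 at 0.20 and S1pr3 at 0.19. In a limma fit on the 7 arrays that the rule did not draw the dsDNA values from, 0 of 14737 genes were called for dsDNA in SKO in either direction (0% lower and 0% higher, Benjamini-Hochberg adjusted p under 0.05), and robust eBayes called 0. At an unadjusted p under 0.05 there were 650 genes, 4.41% of those tested, and 18 of the 95 members, all lower. Edn1 had the fitted difference -0.70 ± 0.15 (SE) with an adjusted p of 0.959 in limma, the lowest among the members and shared by Fthl17f (-0.94 ± 0.20) and Lmod1 (-0.47 ± 0.11). This contrast rests on 1 dsDNA array, and its error comes from the spread of the LPS responses. Because 1 LPS effect is shared by the genotypes, the WT and MyD88KO mock arrays that served the selection enter the fitted values: Gm5523 was -0.25 from mock on the SKO arrays and -0.63 in the fit, and Rny1 -0.10 and -0.34. The 18 members are therefore no independent support for lower values in SKO. SKO cells were not without a dsDNA difference, as 17 of 28 measured interferon-stimulated genes were at least 0.5 higher (median 0.63 over the list).

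LPS left most of these genes near mock. The median LPS minus mock difference of the members was -0.11 in WT, -0.09 in SKO and 0.00 in MyD88KO, where the medians over all genes were 0.00, -0.01 and 0.01. In all 3 genotypes, 79 of the 95 were within 0.5 (log2) of mock. The share of all genes within 0.5 in all 3 genotypes at once was not counted. The 79 therefore cannot show whether the members stayed nearer to mock than other genes, and shares of all genes are given per genotype. In WT 9 members were at -0.5 or lower, where 1.44% of all genes were, and 0 were at 0.5 or higher, where 2.33% were. SKO, whose arrays the rule did not use, had 2 lower (0.686% of all genes) and 2 higher (1.39%). MyD88KO had 8 lower (2.33% of all genes) and 2 higher (2.52%). The WT and MyD88KO mock arrays serve both the selection and these LPS differences, so a mock signal that was high for any reason lowers both.

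**Figure D3:**
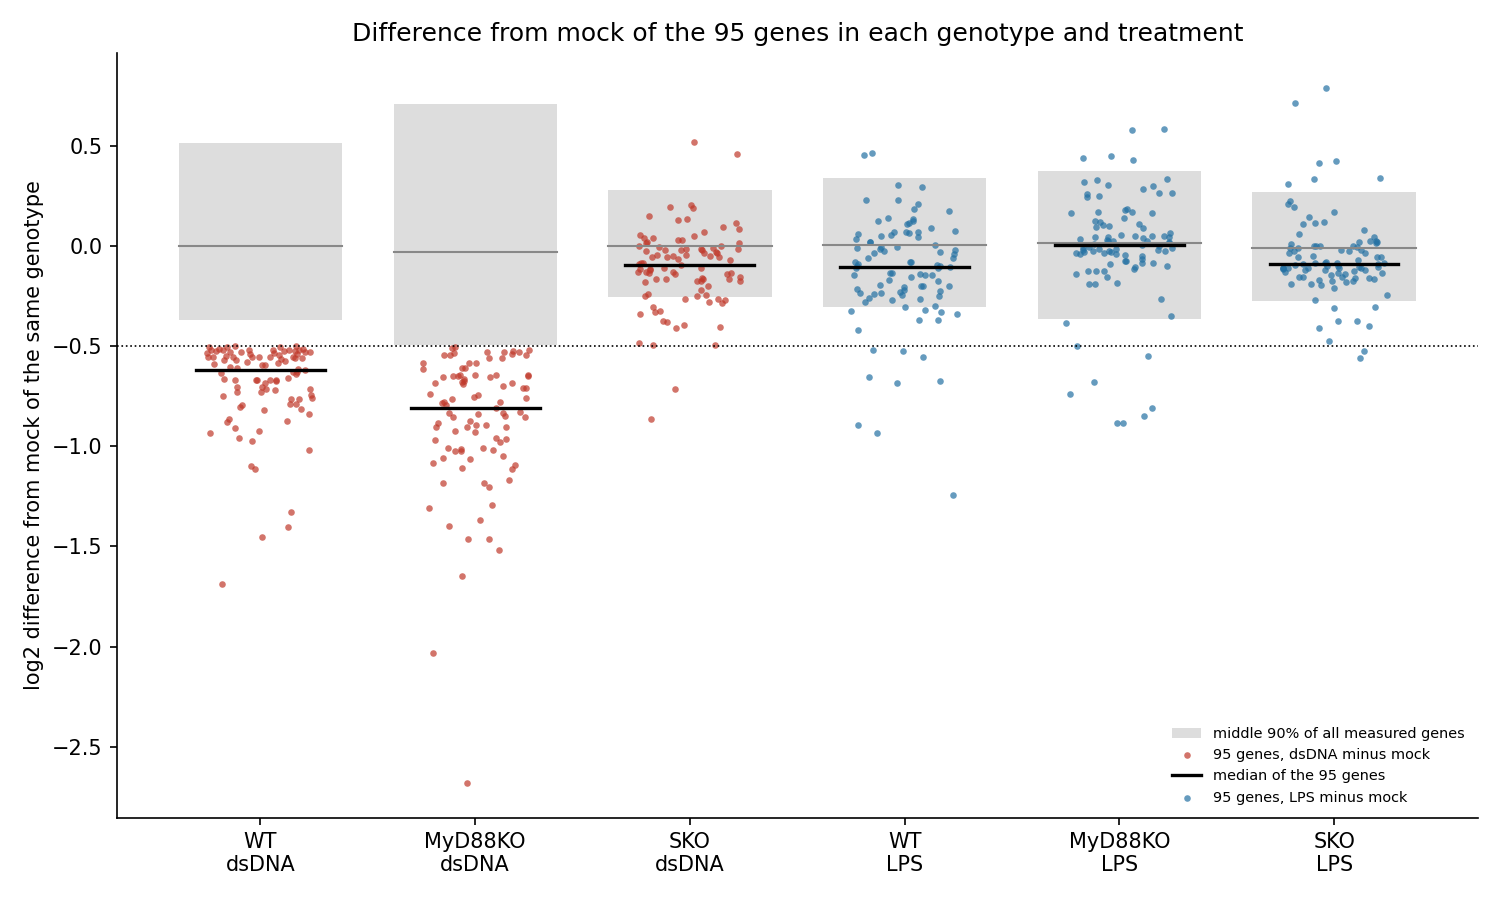
Log2 difference from mock of the same genotype (vertical axis) for the 95 genes, 1 point each, after dsDNA (left) and LPS (right); black bars are medians, grey boxes hold the middle 90% of all measured genes and the dotted line is -0.5. The WT and MyD88KO dsDNA points lie below the line by selection, and the members' medians of the other 4 comparisons lie between -0.11 and 0.00.

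The 9 members lower with LPS in WT included all 4 pseudogenes, Gm5523, Gm5093, Gm10335 and 3000002C10Rik. The same 4 were among the 8 lower in MyD88KO and none was among those of SKO. Gm5523 read 9.0, 7.59 and 7.75 with mock, dsDNA and LPS in WT, 8.67, 8.01 and 7.78 in MyD88KO and 8.05, 7.80 and 8.13 in SKO. For 3000002C10Rik the arrays read 7.59, 6.80 and 6.69 in WT, 7.65, 6.88 and 6.91 in MyD88KO and 6.98, 7.19 and 7.39 in SKO. In these genes the mock arrays of WT and MyD88KO stood above the other arrays, so the dsDNA and LPS differences share that array. Gm5093 had LPS differences of -0.94 in WT, -0.50 in MyD88KO and 0.19 in SKO, and Gm10335 had -0.52, -0.55 and 0.23. Pseudogene probe sets can read the transcripts of their parent genes, and which transcript was measured is uncertain. Without these 4, 5 of 91 members were lower with LPS in WT, 4 in MyD88KO and 2 in SKO.

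**Figure D4:**
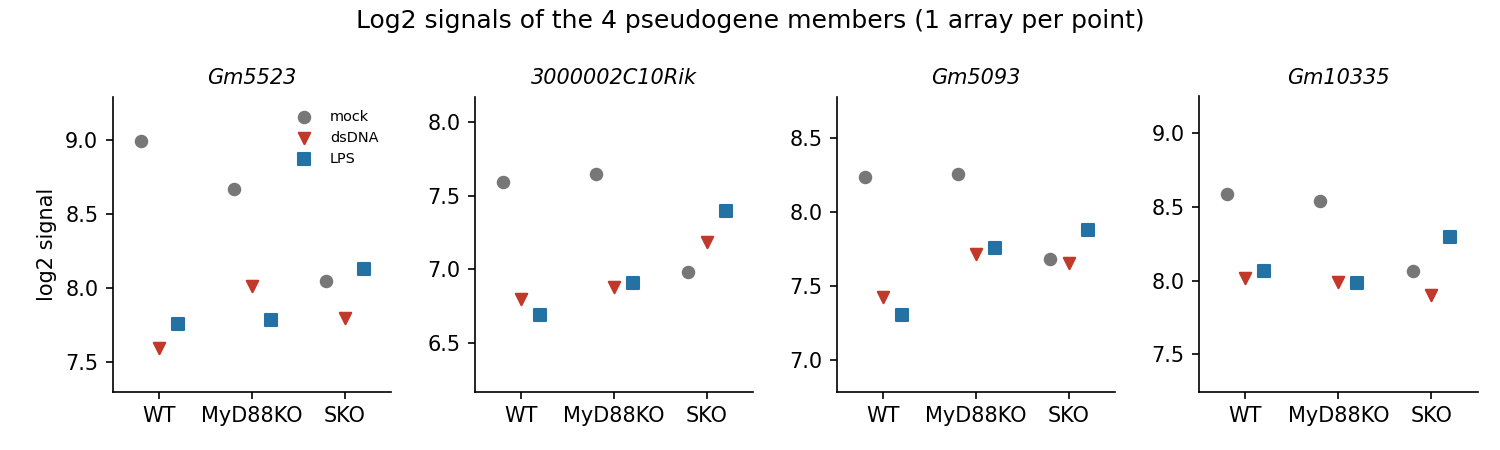
Log2 signal (vertical axis) of the 4 pseudogene members by genotype, 1 point per array. In WT and MyD88KO the mock point is above both treated points in each panel, while in SKO the 3 points are closer together.

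The other members lower with LPS in WT were Prickle1 (-0.66), Prickle2 (-0.56), Fgf5 (-0.67), Gm11983 (-0.69) and Tlr5 (-0.52). In MyD88KO they were Lcn8 (-0.88), Fthl17f (-0.85), Cacng1 (-0.81) and Rny1 (-0.68), and in SKO Gm11983 and Mir145a (-0.56). Higher with LPS were Mir145a and Zfp760 in MyD88KO, each by 0.58, and Lcn8 (0.79) and 5730507C01Rik (0.71) in SKO. Lcn8, Fthl17f, Cacng1, 5730507C01Rik, Fgf5 and Tlr5 had signals between 3.77 and 5.61, around the median of all values (4.44), and no detection calls were used here. Among brighter members, those with a mean of at least 6 on the log2 scale, 5 of 78 were lower with LPS in WT, 1 in SKO and 5 in MyD88KO. The shares of all genes given above are for genes reaching 4.44 and do not match this brighter set.

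The limma test of LPS over the 3 genotypes, 3 LPS against 3 mock arrays with genotype as a block, called 0 of the 95 members. It called 0 of 14737 genes lower (0%) and 77 higher (0.522%), and robust eBayes called 75 genes and 0 members. At an unadjusted p under 0.05, 11 members were lower and 2 higher, against 7.49% of all genes in either direction. The WT and MyD88KO mock arrays in this contrast also served the selection, which favours genes with a high signal there. The 11 members are therefore no independent support for lower values with LPS. The lowest adjusted p of a member in limma was 0.273, that of Nrp1 (-0.18 ± 0.04, SE). Of 30 interferon-stimulated genes tested in the same limma fit, 24 were called higher with LPS, and none of that list is among the 95. The other lists described here, Notch pathway to developmental transcription factors, held 0 of the 77 called genes.

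Compared with LPS in place of mock, 53 of the 95 genes were at least 0.5 lower with dsDNA in WT, where 2.46% of all genes were, and 84 in MyD88KO, where 5.11% were. The same 53 were lower in both. The dsDNA arrays in these differences are the ones the rule used, and it favours genes with a low signal there. The counts therefore cannot be weighed against the shares of all genes. The median dsDNA minus LPS difference was -0.54 in WT and -0.87 in MyD88KO, and it has the same limit although the rule did not use the LPS arrays. For 87 genes the dsDNA array was below both mock and LPS in both genotypes, as it was for 21.7% of the 13605 genes in the selection pool. The place below mock was set by the rule for all 95, so the count and this share cannot be weighed against each other. In SKO the dsDNA array was the lowest of 3 for 48 of the 95 genes, against 26.6% of all genes.

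The level of many members also differed between genotypes, irrespective of dsDNA. In the limma fit of the mock and LPS arrays, 34 of the 95 genes differed between MyD88KO and WT, 19 higher and 15 lower in MyD88KO, while 9.46% of all genes were called higher and 9.82% lower. S1pr3 was 2.68 ± 0.07 (SE, log2) higher in MyD88KO with an adjusted p of 8.34e-06 in limma, and Cavin2, the caveolar protein, 1.94 ± 0.08 (2.02e-05). Gjb2 was 1.41 ± 0.10 higher (limma adjusted p 0.000154), Spry1 1.29 ± 0.08 (9.78e-05) and Arhgap42 0.89 ± 0.06 (0.000126). Klf13, Osr1, Il1r1, Jag1 and Lmod1 followed, with differences of 0.86, 0.83, 0.71, 0.67 and 0.67. These genes thus had a higher level in MyD88KO without dsDNA, and S1pr3 with dsDNA in MyD88KO (8.83) was still above every WT and SKO array.

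**Figure D5:**
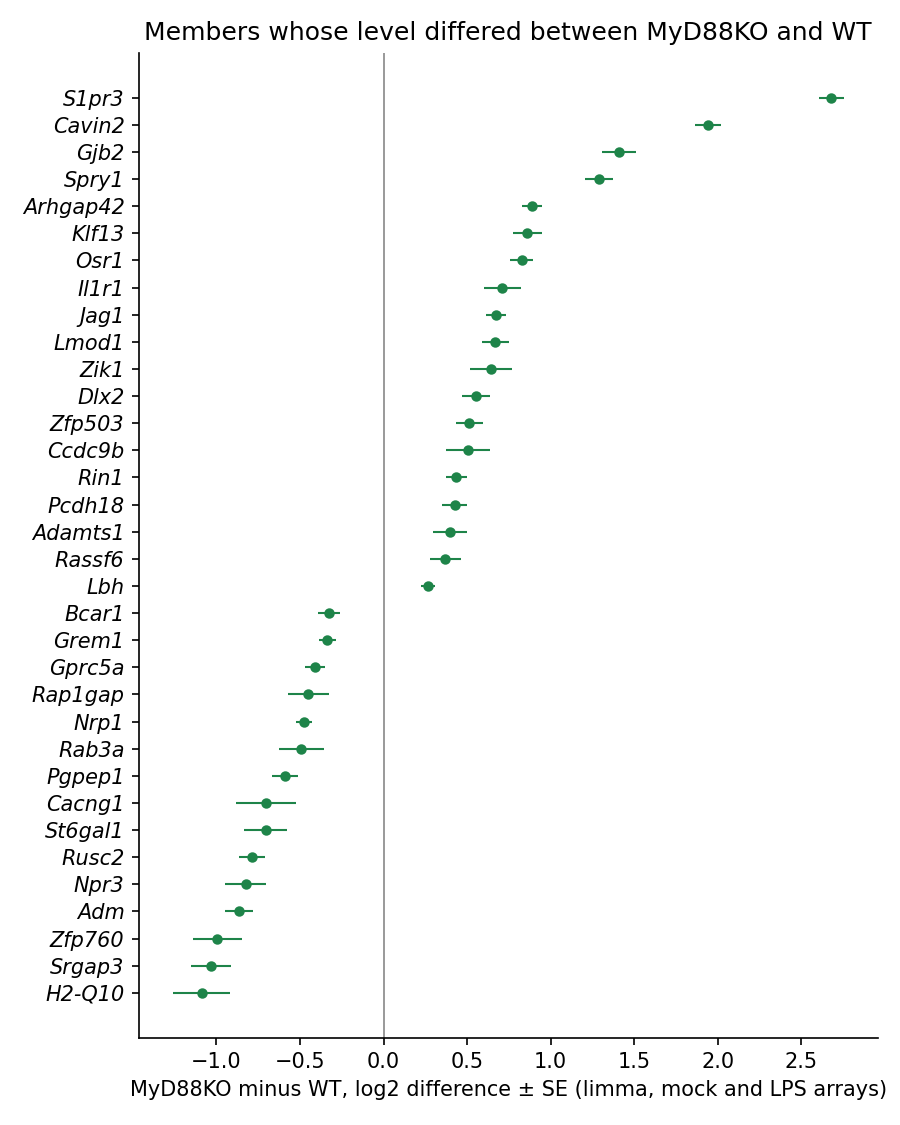
Fitted log2 difference between MyD88KO and WT (horizontal axis) over the mock and LPS arrays, with standard errors from limma, for the 34 members with an adjusted p under 0.05. The 19 genes on the right were higher in MyD88KO, S1pr3 by 2.68, and the 15 on the left were lower, with H2-Q10 at -1.09.

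Lower in MyD88KO were H2-Q10 (-1.09 ± 0.17, SE, limma adjusted p 0.00487), the GTPase-activating protein Srgap3 (-1.03 ± 0.12, 0.00128), Zfp760 (-0.99) and Adm (-0.87 ± 0.08, 0.000527). Npr3, Rusc2 and St6gal1 were lower by -0.83, -0.79 and -0.70. Lower and higher starting levels in MyD88KO thus both occurred among genes that were lower with dsDNA there. Both mock arrays in this contrast also served the selection, and cultures of different genotypes may differ for reasons other than the deleted gene, which cannot be told apart with 1 array per genotype and treatment. In the same limma fit, 5 of 29 Notch pathway genes were lower and 6 higher in MyD88KO. Of 25 vasoactive peptides and receptors, 4 were lower and 4 higher. The cultures also differed in lists that hold none of the 95 genes: in MyD88KO 35 of 38 cell cycle genes and 12 of 17 fibroblast markers were higher, while 11 of 17 p53 targets and 9 of 15 muscle markers were lower. In SKO 7 of 15 muscle markers were lower than in WT. Higher in SKO were 4 of 13 leukocyte and macrophage markers and 8 of 30 interferon-stimulated genes. The part of these differences in the members' levels was not tested.

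Between SKO and WT, 10 members passed in limma, 8 lower and 2 higher in SKO, against 1.04% of all genes called lower and 1.16% higher. The connexin Gjb2 was lower in SKO by -0.78 ± 0.10 (SE, adjusted p 0.0157 in limma), Edn1 by -0.66 ± 0.12 (0.0396) and Mtss1 by -0.65 ± 0.10 (0.0230). Flrt3 (-0.65), Pcdh18 (-0.46), Lbh (-0.35), Gprc5a (-0.34) and Syde1 (-0.31) were the others lower, and Sytl2 (0.43) and Grem1 (0.36) were higher. The WT mock array also served the selection, which favours genes with a high signal there, and the median difference of the members was -0.09, against 0.00 over all genes. The count depends on the fit: it was 0 without the intensity trend, 3 with no filter on dim genes, 5 in a model of all 9 arrays and 0 without the MyD88KO arrays. It was 12 with robust eBayes and 12 with quantile scaling. The other 85 members did not pass, among them Trib2, Jag1 and Adm.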

How the data were processed

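Transcripts were measured on 9 Affymetrix MoGene 2.0 arrays. The authors deposited log2 values, 1 for each probe set on each array, made with Affymetrix Expression Console 1.3.1.187 per the submitters' processing notes. How they were normalised is not stated there or in the labels, and the deposited log2 values were used unscaled. Titles write MyD88KO where the series design spells the genotype differently, and the titles were followed. A gene took its single-symbol probe set with the highest mean. Those naming several genes, or none, were not used.

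The members, gene lists and tests were chosen with earlier results of these data known, and the members were sorted by role after they were known. Values are given for members with the lowest dsDNA differences, the extreme SKO and LPS differences, members of a list, those called in limma and those near the limit; other members are named only. Markers of other cell types were read the same way.

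Tests used limma 3.58.1 in R 4.3.3 (lmFit, eBayes with an intensity trend, Benjamini-Hochberg over the 14737 genes reaching 4.44 on any of the 9 arrays, adjusted p under 0.05). The fit held genotype, a shared LPS effect and a dsDNA effect of SKO on 7 arrays, with 2 residual degrees of freedom, and left out the dsDNA arrays of WT and MyD88KO. It was tested on simulated data. The number of arrays limits the precision. The labels do not say whether arrays came from separate cultures, so the spread behind the p-values may be technical. Other limits, probe set rules, scalings and models were tried as alternatives. Promoter windows were searched with Python 3.11.15.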

Additional observations from a re-analysis of the deposited data

Results flagged for a closer look

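In 3 members the difference from mock went opposite ways in 2 genotypes by at least 0.5 (log2) on each side. The gene model 5730507C01Rik had a dsDNA minus mock difference of -0.92 in WT and 0.52 in SKO, 1.44 apart. Lcn8 had an LPS minus mock difference of -0.88 in MyD88KO and 0.79 in SKO, 1.67 apart. Mir145a had an LPS minus mock difference of -0.56 in SKO and 0.58 in MyD88KO, 1.14 apart. These differences between genotypes were not tested, since each rests on 1 array per group. The signals of 5730507C01Rik and Lcn8 lay between 4.04 and 5.40 on the log2 scale, and those of Mir145a between 5.59 and 7.22.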

How the results depend on the processing

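The number of members follows the limit set on the difference: 211 genes were at least 0.4 lower in both genotypes, 45 at least 0.6 and 4 at least 1, against 95 at 0.5. With a limit of 0.3 in place of 0.5, 14 members were lower with dsDNA in SKO, 18 with LPS in WT and 9 with LPS in SKO. The members called between SKO and WT went from 10 to 0 without the intensity trend, 3 with no filter on dim genes and 5 with 9 arrays in the model. They went to 12 with robust eBayes and with quantile scaling, and to 0 without the MyD88KO arrays. The cause was not tested, though the last leaves fewer arrays. Averaging the probe sets of a gene gave 95 members, 94 of them shared, a floor of 6 gave 76, no floor 107, centred array medians 73 and quantile scaling 115, of which 88 were among the 95. The members called between MyD88KO and WT were 27 to 39 under every alternative that was run. Neither LPS nor dsDNA in SKO gave a called member under any limma alternative that was run. With 1 array per group no replicate could be left out of a difference.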

Other observations

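Probe sets with several symbols were not members, and 8 of them met the same limits. The probe set of Lims2 and Gpr17 had dsDNA minus mock differences of -0.84 in WT, -1.67 in MyD88KO and -0.18 in SKO; Lims2 (PINCH-2) is a LIM protein of focal adhesions. The probe set shared by Rgma, a repulsive guidance molecule and BMP co-receptor, and A730056A06Rik had -0.53, -0.78 and 0.00 in the same order. The probe set of Actg1, cytoplasmic gamma-actin, and Gm12739 had -0.60 in WT and -0.51 in MyD88KO, with an LPS difference of -0.77 in WT. Both probe sets of Sumo2, a ubiquitin-like modifier, with Mir684 genes had -0.96 in WT and -0.51 in MyD88KO, and -0.96 with LPS in WT. Their values were identical in every difference, so they are not separate readings. A further 144 probe sets without a symbol met the limits and are unnamed here.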
